A study of Mus musculus with 12 samples.

Results

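The loss of thymidine kinase 2 (TK2), the mitochondrial enzyme that phosphorylates thymidine and deoxycytidine for mitochondrial DNA synthesis, was compared between skeletal muscle and heart by asking, for each gene, whether the change in *Tk2* knockout mice was the same in both tissues. RNA from hind limb skeletal muscle and heart of C57BL/6 mice 11 days old was hybridised to 12 Affymetrix arrays of the Mouse Gene 1.1 ST type, with 3 in each of 4 groups. The groups were wild-type (wt, Tk2+/+) skeletal muscle, knockout (TK2 KO, Tk2-/-) skeletal muscle, wild-type heart and knockout heart. The pups came from matings of Tk2+/- mice, no treatment was given, and whole tissue was used, so that all cell types of each tissue contributed RNA. The genotype effect in a tissue is the log2 fold change of Tk2-/- against Tk2+/+, and the difference is the effect in skeletal muscle minus the effect in heart. A positive difference therefore means a gene that stood relatively higher in Tk2-/- skeletal muscle, and a negative one a gene that stood relatively higher in Tk2-/- heart. Of 18820 genes with a probe set of their own, 9399 had a mean deposited signal above 50 in the Tk2+/+ arrays of both tissues, and only these are read here.

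Skeletal muscle and heart are both striated muscles that depend on mitochondrial respiration, but they are built from different myosin, actin and troponin isoforms and burn fuel differently. Skeletal muscle wastes through FoxO transcription factors, which switch on ubiquitin ligases that mark muscle proteins for the proteasome. The heart relies on fatty acid oxidation, which is set by the PPAR nuclear receptors and their coactivators of the PGC-1 family. When mitochondrial function fails, cells are known to turn on the integrated stress response through the transcription factor Atf4.

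The Tk2-/- heart arrays were dimmer than all others, with mean deposited signals of 147 to 168 against 227 to 243 in Tk2+/+ heart and 202 to 252 over the skeletal muscle arrays. Values were therefore quantile normalised within each tissue and are given below as normalised signal. The scaling decides how many genes differ: without normalisation the median difference over the 9399 genes was 0.69 on the log2 scale and 6993 genes had a positive and 58 a negative difference, and with median centring the median was 0.55 and the counts were 5670 and 95. The tissues matched their markers. The summed normalised signal of 20 skeletal muscle fibre genes was 108173 to 111082 in Tk2+/+ skeletal muscle and 14339 to 14654 in Tk2+/+ heart, where the fast myosins *Myh1* and *Myh2* averaged 8.29 and 10.1, and that of 19 cardiomyocyte genes was 64190 to 77021 in Tk2+/+ heart and 12052 to 14019 in Tk2+/+ skeletal muscle, where the atrial peptide *Nppa* averaged 7.07. *Xist*, which is transcribed in females, exceeded 100 on 1 of the 3 wild-type and 2 of the 3 knockout arrays of skeletal muscle, and on 2 and 3 of those of heart, and its part in the results was examined only through a fit with sex as a term. *Tk2* itself was 58.5, 65.9 and 66.0 in Tk2+/+ and 61.4, 46.6 and 52.5 in Tk2-/- skeletal muscle, and 55.9, 62.2 and 68.7 in Tk2+/+ and 32.2, 52.6 and 39.1 in Tk2-/- heart. The groups overlapped in skeletal muscle and not in heart, and the difference of 0.26 ± 0.17 (SE) did not pass the threshold (adjusted p = 0.368, limma, 95% interval -0.11 to 0.64), whereas without normalisation it was 0.57 (adjusted p = 0.0198). Where the *Tk2* probe set lies relative to the deleted part of the gene is not known here, so that its signal is no check of the genotype labels.

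A different effect in muscle than in heart was called for 1373 of the 9399 genes (14.6%, limma, adjusted p under 0.05). The difference was positive for 805 genes (8.56%) and negative for 568 (6.04%), and it was at least 1 on the log2 scale for 133 and 98 of them. Counts of called differences in the gene lists below are to be set against these shares. Most of the positive differences came from genes called in a single tissue, with 326 higher in Tk2-/- skeletal muscle and not called in heart and 291 lower in Tk2-/- heart and not called in skeletal muscle. Most negative differences likewise came from 240 genes called lower in Tk2-/- skeletal muscle alone and 194 called higher in Tk2-/- heart alone. A gene not called in a tissue may still have changed there. Against these, 873 genes were higher and 1296 lower in both tissues with no difference called, and 3278 had no call at all. Across the 9399 genes, which are not independent replicates, the effect in muscle and the effect in heart had a Pearson correlation of 0.655. Taken alone, muscle had 2048 genes higher (21.8%) and 2218 lower (23.6%) in Tk2-/- mice, and heart 1716 (18.3%) and 2588 (27.5%). Leaving out 1 array moved the positive count to between 482 and 1070 and the negative count to between 352 and 641. The lowest values came without Tk2-/- heart replicate 1 and the highest without Tk2-/- heart replicate 2, and the positive count also fell by more than 1.5 times without Tk2-/- skeletal muscle replicates 2 (510) and 3 (532) and Tk2-/- heart replicate 3 (510), and the negative count without Tk2-/- skeletal muscle replicate 2 (368).

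**Figure D1:**
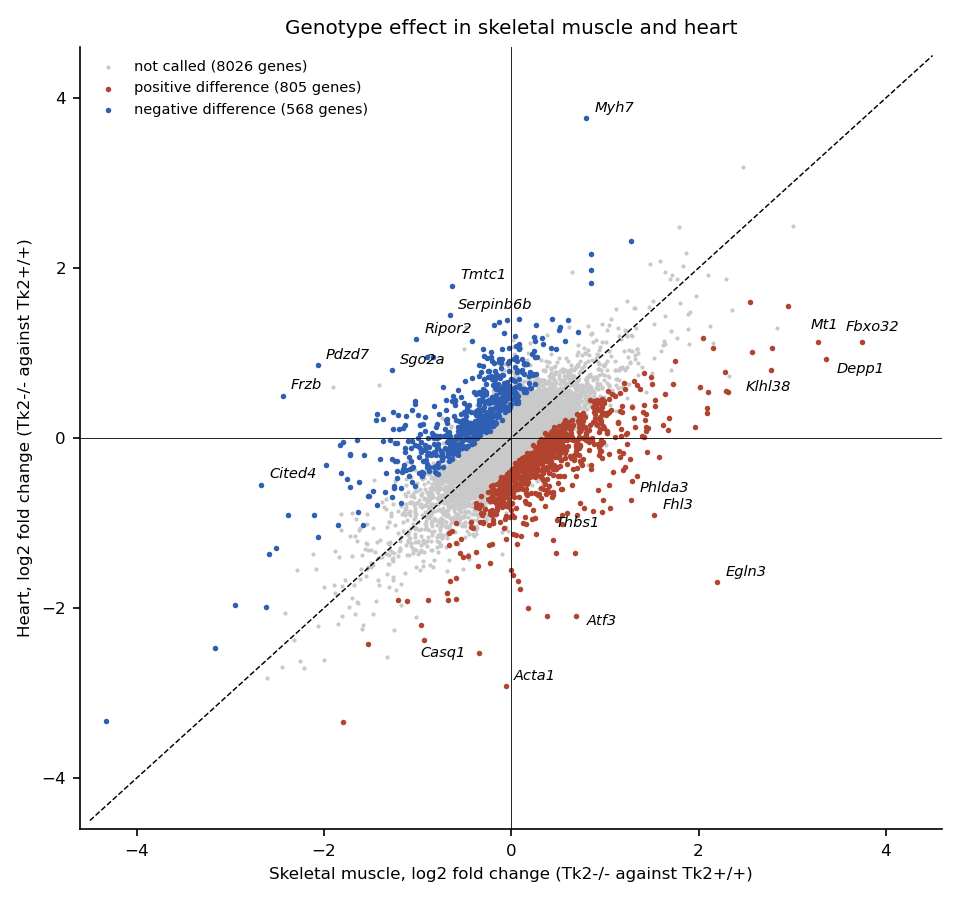
Genotype effect (log2 fold change of Tk2-/- against Tk2+/+) for 9399 genes, with skeletal muscle on the horizontal and heart on the vertical axis and 1 point per gene. Red points are the 805 genes with a positive and blue points the 568 with a negative difference; grey points were not called, and the dashed line marks equal effects. *Egln3* lies farthest below the line, at 2.20 and -1.69, and *Myh7*, *Frzb* and *Pdzd7* farthest above it.

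Genes that moved in opposite directions in the tissues were few. Of the 9399 genes, 79 (0.841%) were higher in Tk2-/- skeletal muscle and lower in Tk2-/- heart, and 55 (0.585%) fell in the former and rose in the latter, with each effect and the difference past the threshold. These counts were 42 to 111 and 35 to 65 when 1 array was left out, the lowest without Tk2-/- skeletal muscle replicate 2 and Tk2-/- heart replicate 1 and the highest without Tk2-/- heart replicate 2; the first was also more than 1.5 times smaller without Tk2+/+ skeletal muscle replicates 1 (52) and 3 (51), Tk2-/- skeletal muscle replicate 3 (43), Tk2+/+ heart replicate 3 (47) and Tk2-/- heart replicates 1 (43) and 3 (45). *Egln3*, a prolyl hydroxylase that marks hypoxia-inducible factors for destruction, had the largest difference of all genes read. Its signal was 391, 704 and 857 in Tk2+/+ and 3274, 2881 and 2568 in Tk2-/- skeletal muscle, and 963, 1540 and 1511 in Tk2+/+ and 366, 480 and 347 in Tk2-/- heart. In each tissue all knockout arrays lay outside the wild-type range, above it in muscle and below it in heart. The effects of 2.20 and -1.69 differed by 3.89 ± 0.35 (adjusted p = 4.97e-05), which amounts to a 14.8-fold ratio between the fold changes. Hypoxia response genes as a list stayed near the shares over all genes read. Of 25 of them read, 3 had a positive difference (12%, against 8.56%) and 2 a negative one (8%, against 6.04%). The list's median difference was 0.01. *Fhl3*, a LIM protein of skeletal muscle, was 977, 1347 and 1246 against 3011, 3976 and 3371 in muscle and 165, 160 and 159 against 74.9, 99.6 and 64.9 in heart (difference 2.43 ± 0.20, adjusted p = 3.12e-05). *Phlda3*, a p53 target that restrains Akt, was 324, 609 and 701 against 1361, 1203 and 1278 in muscle and 153, 126 and 148 against 77.1, 82.3 and 78.7 in heart (2.01 ± 0.28, adjusted p = 0.00107). The matrix glycoprotein gene *Thbs1* rose 2.07-fold in muscle and fell 1.77-fold in heart (1.88 ± 0.27, adjusted p = 0.00107). In all 3 genes the genotypes did not overlap in either tissue. The deubiquitinase gene *Otud1* (2.03), the cholinesterase *Bche* (1.84), the interferon-induced *Rsad2* (1.71), *Gm826* (1.60) and the phosphatase *Dusp18* (1.51, adjusted p = 0.0153, and 0.0738 without moderation) had the same orientation, and for *Otud1* the muscle arrays overlapped, at 131 to 240 in Tk2+/+ and 220 to 416 in Tk2-/- mice.

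In the reverse orientation, *Pdzd7*, known as a scaffold protein of the inner ear, was 853, 639 and 661 in Tk2+/+ and 170, 158 and 146 in Tk2-/- skeletal muscle, and 56.1, 54.1 and 46.3 in Tk2+/+ and 104, 108 and 111 in Tk2-/- heart. The arrays of a group lay close together, and the difference of -2.92 ± 0.15 had the lowest adjusted p among the negative differences named here (5.71e-07). *Tmtc1*, an endoplasmic reticulum protein gene, was 690 to 765 against 428 to 540 in muscle and 234, 278 and 375 against 1257, 810 and 1120 in heart (-2.42 ± 0.24, adjusted p = 0.000108). *Serpinb6b*, a serine protease inhibitor gene, rose in heart from 337 to 426 up to 919 to 1193 and overlapped in muscle, where it was 37.3 to 94.7 against 30.8 to 38.3 (-2.10 ± 0.28, adjusted p = 0.000791). The imprinted retrotransposon-derived gene *Peg10* was 444, 306 and 284 against 160, 183 and 182 in muscle and 68.2, 57.0 and 66.6 against 167, 103 and 153 in heart, so that its level fell in the tissue where it was bright and rose where it was dim. *Ripor2* (-2.18), the centromere protector *Sgo2a* (-2.08), the Tie2 ligand *Angpt1* (-1.79) and *Fchsd2* (-1.33) moved likewise. The rise in heart depended on the scaling for some of these genes. Without normalisation it still passed for *Pdzd7*, *Tmtc1*, *Serpinb6b*, *Peg10* and *Ripor2*, was 0.14 for *Sgo2a* and 0.30 for *Angpt1* with no call, and was -0.09 for *Fchsd2*, and the class of 55 genes then held 5, whereas the class of 79 held 1070.

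**Figure D2:**
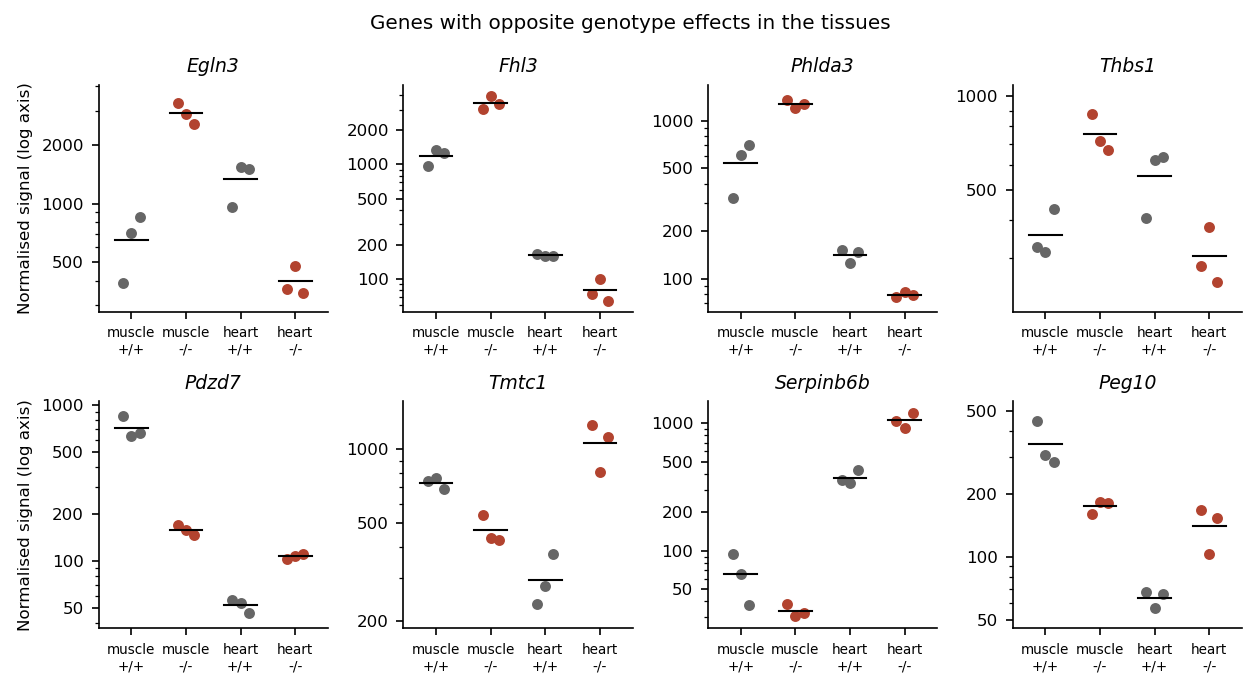
Normalised signal of 8 genes on each array (log axis), by tissue and genotype; points are the 3 arrays of a group and lines the group means, with Tk2-/- arrays in red. *Egln3*, *Fhl3*, *Phlda3* and *Thbs1* (top) were higher in Tk2-/- muscle and lower in Tk2-/- heart, and *Pdzd7*, *Tmtc1*, *Serpinb6b* and *Peg10* (bottom) the reverse, with overlap of genotypes only for *Serpinb6b* in muscle.

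Promoter sequence was looked up for genes of opposite orientation, as a description of the letters and with no test. Shown are the 250 bases before the start of *Egln3*, which has the largest difference, of *Otud1*, the gene of that class with the most matches among those with the largest differences, and of *Pdzd7*, the gene called in both tissues with the largest negative difference (RefSeq, GRCm38.p6). *Egln3* lies on the minus strand of chromosome 12 (chr12:54203875-54204124), *Otud1* on the plus strand of chromosome 2 (chr2:19657481-19657730) and *Pdzd7* on the minus strand of chromosome 19 (chr19:45045773-45046022). Capitals mark ACGTG, the core bound by hypoxia-inducible factors, and GTAAACA, the core bound by FoxO factors, searched on both strands.
Egln3: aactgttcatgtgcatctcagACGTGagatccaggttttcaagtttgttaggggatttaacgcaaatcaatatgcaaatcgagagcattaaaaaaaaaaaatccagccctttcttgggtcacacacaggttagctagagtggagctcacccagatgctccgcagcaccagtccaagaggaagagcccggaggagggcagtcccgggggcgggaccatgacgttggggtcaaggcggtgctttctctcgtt
Otud1: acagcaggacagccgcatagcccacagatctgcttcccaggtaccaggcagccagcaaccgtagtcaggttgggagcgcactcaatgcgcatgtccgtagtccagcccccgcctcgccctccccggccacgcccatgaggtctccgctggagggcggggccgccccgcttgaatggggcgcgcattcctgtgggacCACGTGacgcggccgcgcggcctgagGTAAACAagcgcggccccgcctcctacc
Pdzd7: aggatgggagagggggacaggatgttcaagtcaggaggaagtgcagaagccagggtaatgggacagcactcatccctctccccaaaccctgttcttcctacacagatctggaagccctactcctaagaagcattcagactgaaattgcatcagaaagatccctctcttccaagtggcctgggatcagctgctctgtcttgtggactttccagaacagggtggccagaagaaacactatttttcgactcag
The *Egln3* window held ACGTG once, starting 229 bases before the start of the gene. The *Otud1* window held it on both strands in an overlapping pair that begins 54 bases before the start, and GTAAACA 28 bases before it. The *Pdzd7* window held neither, nor the cyclic AMP response element TGACGTCA or the core bound by MEF2. Over windows that also take in 50 bases after the start, ACGTG was in 25.8% of the 9795 promoters of the genes read, in 25.6% of those of genes with a positive and in 18.3% of those of genes with a negative difference. GTAAACA was in 2.50%, 2.62% and 2.33%, TGACGTCA in 3.14%, 2.62% and 1.83%, and the MEF2 core in 3.29%, 3.92% and 4.66%. Promoters were found for 7606 of the 9399 genes.

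Atrophy genes rose in both tissues, and more of them further in skeletal muscle than the reverse. Of 25 genes of muscle atrophy and FoxO targets, all of them read, 21 were higher in Tk2-/- skeletal muscle and 18 in Tk2-/- heart, and none was lower in either. The difference was positive for 9 (36.0% against 8.56% of all genes read), negative for none and not called for 16, and its median was 0.52 against 0.05 over all genes read. The median effect of the list was 1.43 in muscle and 0.80 in heart, and without normalisation 0.15 in heart, where the median of all genes read was then -0.65. *Fbxo32* (atrogin-1), a ubiquitin ligase of wasting muscle, was 231, 249 and 356 in Tk2+/+ and 3502, 4362 and 3789 in Tk2-/- skeletal muscle, and 464, 452 and 412 in Tk2+/+ and 1064, 853 and 1065 in Tk2-/- heart. It was therefore higher in heart than in muscle of wild-type mice and higher in muscle than in heart of knockout mice. The rise was 13.4-fold in muscle and 2.19-fold in heart, a difference of 2.61 ± 0.20 (adjusted p = 2.10e-05). *Trim63* (MuRF1), the other classical atrophy ligase, rose by 2.58 and 1.01 on the log2 scale (difference 1.56 ± 0.17, adjusted p = 0.000184) and is named here after its value was seen. *Depp1*, a FoxO target, rose by 3.36 and 0.93 (difference 2.43 ± 0.34) and *Klhl38* by 2.77 and 0.80 (1.97 ± 0.18). *Foxo1* was 283 to 322 against 702, 1160 and 745 in muscle and 261 to 282 against 322 to 345 in heart, with an effect of 1.44 in muscle that passed and one of 0.29 in heart that did not. *Foxo1* was thus called in muscle alone, whereas *Fbxo32*, *Depp1* and *Klhl38* were called in both tissues. Of 34 autophagy and lysosome genes 24 were higher in muscle and 18 in heart (median effect in heart 0.23, and -0.39 without normalisation), and the difference was positive for 2 and negative for 1, which is below the shares over all genes read. *Map1lc3a*, an autophagosome protein gene, had the larger of the positive ones, with effects of 1.31 and 0.24, the latter -0.42 without normalisation and -0.24 with median centring.

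**Figure D3:**
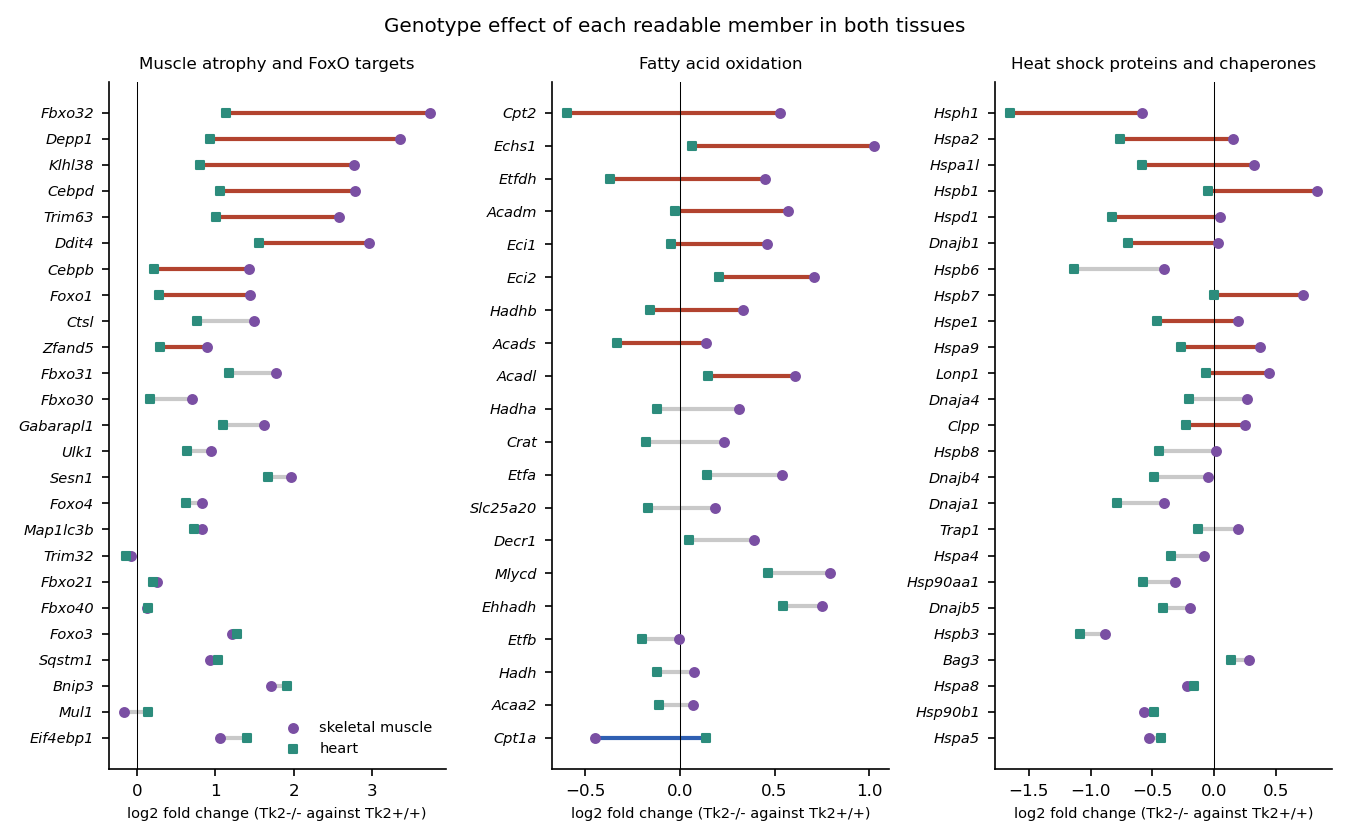
Genotype effect (log2 fold change of Tk2-/- against Tk2+/+) of each member read of 3 lists, with circles for skeletal muscle and squares for heart. Lines join the tissues, red for a called positive, blue for a called negative and grey for no called difference; 9 of 25 atrophy and FoxO genes, 9 of 20 fatty acid oxidation genes and 11 of 25 heat shock and chaperone genes have red lines.

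Genes that respond to glucocorticoids, the adrenal steroids that promote muscle wasting, followed a similar course. Of 28 listed genes 21 were read, of which 17 were higher in Tk2-/- skeletal muscle and 11 in Tk2-/- heart, where 2 were lower. The difference was positive for 7 and negative for none, with a median of 0.62. The metallothionein gene *Mt1* was 262, 189 and 211 against 2251, 2633 and 1953 in muscle and 523, 837 and 775 against 1334, 1723 and 1627 in heart (difference 2.15 ± 0.25, adjusted p = 0.000287). The transcription factor gene *Cebpd* rose by 2.79 and 1.06, and *Gadd45g*, a stress-induced growth arrest gene, rose by 1.29 in muscle and fell by 0.51 in heart. *Cebpd* also counts among the atrophy genes and *Gadd45g* among the p53 targets, so that the lists are not independent. Insulin signaling genes held members of both signs, with 3 of 29 genes on each side (10.3% each, against 8.56% and 6.04% of all genes read). *Irs2*, an insulin receptor substrate that FoxO factors induce, was 128, 135 and 150 against 424, 393 and 310 in muscle and 139, 402 and 431 against 195, 206 and 226 in heart, where the wild-type arrays were widely spread (difference 1.79 ± 0.42, adjusted p = 0.0181, and 0.0832 without moderation of the variances). The growth factor binding protein *Igfbp5* fell in muscle from 1997 to 2651 down to 452 to 924 and did not pass in heart (-1.54 ± 0.30, adjusted p = 0.0072). Among 16 clock genes, the repressor gene *Nfil3* was called higher in muscle alone (difference 1.55), and *Bhlhe41*, a clock repressor, had effects of -1.15 in muscle and -0.31 in heart, a difference of -0.84 that was -0.19 without normalisation (adjusted p = 0.512).

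Genes of fatty acid oxidation rose in skeletal muscle, whereas few were called in heart. Of 20 genes read of this pathway, 13 were higher and 1 lower in Tk2-/- skeletal muscle, whereas 2 were higher and 3 lower in Tk2-/- heart. The difference was positive for 9 (45.0%) and negative for 1, *Cpt1a*, the carnitine transferase of the outer membrane, which is named after its value was seen (-0.59, adjusted p = 0.0265). That call ended without any 1 of 4 arrays (adjusted p up to 0.0711), and the difference was 0.18 without normalisation and 0.044 with median centring. *Cpt2*, the carnitine transferase of the inner membrane, was 691, 818 and 860 against 980, 1296 and 1170 in muscle and 1401, 1560 and 1451 against 868, 1278 and 810 in heart (difference 1.13 ± 0.22, adjusted p = 0.00681). Neither tissue had overlap between the genotypes, and the directions were opposite. *Echs1*, the short-chain enoyl-CoA hydratase, was 472 to 552 against 1006 to 1159 in muscle and 863 to 1016 against 922 to 1124 in heart (0.96 ± 0.14, adjusted p = 0.00127). The list's median effect was 0.42 in muscle and -0.08 in heart, the latter between -0.61 and 0.08 under the other scalings. Adipocyte markers moved with this list in muscle: their sum over 13 genes was 7993 to 10522 in Tk2+/+ and 12163 to 12986 in Tk2-/- muscle, and 6624 to 7787 and 7144 to 8282 in heart. All 4 of them that were read were higher in Tk2-/- muscle, 1 in Tk2-/- heart, and 1 differed. *Adipoq* (adiponectin) averaged 136 and 355 and *Cidec*, a lipid droplet gene, 106 and 495 in Tk2+/+ and Tk2-/- muscle, both below the reading limit in heart. Not all markers of the list rose in muscle. *Lep* (leptin) averaged 35.5 and 18.3 there and was called lower, and *Ucp1* averaged 98.8 and 32.8 with no call. The sum weights the brightest genes most. These single markers are named after their values were seen, and the part of fat content in the differences of this list was not tested.

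Regulators of this pathway differed in both directions. *Ppargc1a* (PGC-1α), the coactivator of mitochondrial biogenesis, was 635, 728 and 1035 against 511, 537 and 490 in muscle and 1149, 1526 and 1328 against 1846, 1704 and 1838 in heart. It was lower in Tk2-/- muscle and higher in Tk2-/- heart, where the effect of 0.43 was -0.19 without normalisation and -0.01 with median centring, a difference of -1.03 ± 0.21 (adjusted p = 0.00882) that was -0.28 without normalisation (adjusted p = 0.248) and -0.42 with median centring (adjusted p = 0.114). *Ppara*, the nuclear receptor that drives fatty acid oxidation, was 352, 594 and 457 against 260, 296 and 269 in heart and did not pass in muscle (1.02 ± 0.25, adjusted p = 0.0232). *Angptl4*, an inhibitor of lipoprotein lipase and a PPAR target, was 126 to 228 against 363 to 444 in muscle and overlapped in heart (1.37 ± 0.34, adjusted p = 0.0232). For *Ppara* and *Angptl4* the call ended when any 1 of 4 arrays was left out, with adjusted p up to 0.061 and 0.060. Over 22 genes of lipid uptake, storage and PPAR targets, the difference was positive for 6 and negative for 3.

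More glucose genes fell in heart than in muscle. Of 31 genes of glycolysis and pyruvate entry, 13 were lower and 5 higher in Tk2-/- heart, and 5 lower and 7 higher in Tk2-/- skeletal muscle. The difference was positive for 5 (16.1%) and negative for 2 (6.45%), against 8.56% and 6.04% of all genes read. *Hk2*, the insulin-responsive hexokinase, was 554, 687 and 515 against 261, 369 and 266 in heart and overlapped in muscle at 449 to 638 against 561 to 743 (1.19 ± 0.24, adjusted p = 0.00827). *Gys1*, the muscle glycogen synthase, rose in muscle from 2006 to 2234 up to 2709 to 3062 and fell in heart from 686 to 726 down to 359 to 587 (1.13 ± 0.20, adjusted p = 0.00462). *Pfkfb2*, which makes the activator of phosphofructokinase in heart, fell in muscle from 94.4 to 131 down to 74.5 to 89.3 and rose in heart from 212 to 276 up to 370 to 468 (-1.12 ± 0.18, adjusted p = 0.00205), a difference of -0.46 without normalisation (adjusted p = 0.058). *Slc37a4*, the glucose 6-phosphate transporter, fell in muscle from 1154 to 1270 down to 255 to 414 and overlapped in heart (-1.75 ± 0.19, adjusted p = 0.000217). In the TCA cycle, 3 of 21 genes had a positive (14.3%, against 8.56% of all genes read) and none a negative difference. The largest was that of pyruvate carboxylase (*Pcx*, 1.06), which was 97.1 to 134 against 216 to 322 in muscle.

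Few of the nuclear genes of the mitochondrial machinery had a called difference. Of 74 nuclear-encoded subunits of the respiratory chain, 1 differed (*Atp5g2*, -0.31), and the list's median difference was 0.02. Among 66 cytosolic ribosomal proteins 1 differed (*Rpl14*, -0.40), and among 71 mitochondrial ribosomal proteins 4 had a positive and 1 a negative difference. Of 24 genes that maintain or transcribe mitochondrial DNA, the difference was positive for the protease gene *Lonp1* (0.51) and the RNA polymerase gene *Polrmt* (0.41). It was negative for *Dguok* (-0.46), the purine counterpart of *Tk2*, which was 500 to 563 against 336 to 430 in muscle and 475 to 517 against 459 to 510 in heart. The calls of these small differences were not firm. Those of *Atp5g2*, *Rpl14*, *Dguok* and *Polrmt* ended when any 1 of 12, 10, 9 and 7 of the arrays was left out (adjusted p up to 0.093, 0.108, 0.093 and 0.079), and the differences of *Atp5g2*, *Rpl14* and *Dguok* turned positive without normalisation and with median centring.

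Stress genes differed more. For the Atf4 branch of the integrated stress response, 24 of 31 genes measured were read. Of these 24 genes, 6 had a positive difference (25%, against 8.56% of all genes read) and none a negative one. Within the tissues the members went both ways. In Tk2-/- skeletal muscle 8 were higher and 5 lower (median effect 0.11), and in Tk2-/- heart 5 were higher and 6 lower (median 0.0002). *Chac1*, a glutathione-degrading enzyme and Atf4 target, was 254, 270 and 250 against 1085, 1074 and 1318 in muscle and 73.2, 81.8 and 83.2 against 125, 88.7 and 106 in heart (1.74 ± 0.16, adjusted p = 4.72e-05), where the effect in heart was 0.35 and turned to -0.19 without normalisation and -0.01 with median centring. *Asns*, the asparagine synthetase, rose in muscle from 59.7 to 73.4 up to 72.5 to 173 and fell in heart from 51.9 to 61.1 down to 17.0 to 28.3 (1.60 ± 0.29, adjusted p = 0.00519). The genotypes overlapped in muscle and not in heart. *Atf3*, a factor induced by Atf4 and also an immediate early gene, was 112, 275 and 251 against 23.2, 67.3 and 22.7 in heart and 76.4 to 139 against 114 to 237 in muscle (2.79 ± 0.51, adjusted p = 0.00517). The positive differences of this list thus came from rises in muscle (*Chac1*), from falls in heart (*Atf3*) or from both (*Asns*).

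Of 27 antioxidant and Nrf2 target genes, 15 were higher in Tk2-/- skeletal muscle and 5 in Tk2-/- heart, with a positive difference for 8 and a negative one for 1. *Hmox1*, the heme oxygenase, was 84.7 to 92.9 against 361, 665 and 277 in muscle and 57.6 to 68.5 against 73.4 to 137 in heart (1.42 ± 0.35, adjusted p = 0.0225), a call that ended without Tk2-/- heart replicate 1 (adjusted p = 0.0519). *Srxn1*, the sulfiredoxin, rose in muscle from 112 to 138 up to 208 to 234 and fell in heart from 65.9 to 86.1 down to 54.2 to 62.2 (1.07 ± 0.14, adjusted p = 0.000548). Heat shock and chaperone genes differed for 11 of 25, all positive, and here the change lay in heart, where 15 were lower and none higher, against 6 lower and 4 higher in muscle. *Hspa2*, an Hsp70 family member, was 132 to 157 against 157 to 179 in muscle and 106 to 147 against 59.4 to 77.9 in heart (0.92 ± 0.16, adjusted p = 0.0041). Proteasome subunits gave 11 positive and no negative differences among 39, and those named here were below 1 on the log2 scale. The core subunit gene *Psmb3* was 2997 to 3321 against 3933 to 4076 in muscle and 2309 to 2530 against 1860 to 2252 in heart (0.57 ± 0.11, adjusted p = 0.00756), and *Psmb5*, which carries the chymotrypsin-like activity, had effects of 0.26 and -0.25 (0.52 ± 0.10). The regulatory particle gene *Psmd8* differed by 0.55 ± 0.12. Of the 39 subunits 23 were higher and 4 lower in muscle, and 8 higher and 6 lower in heart.

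**Figure D4:**
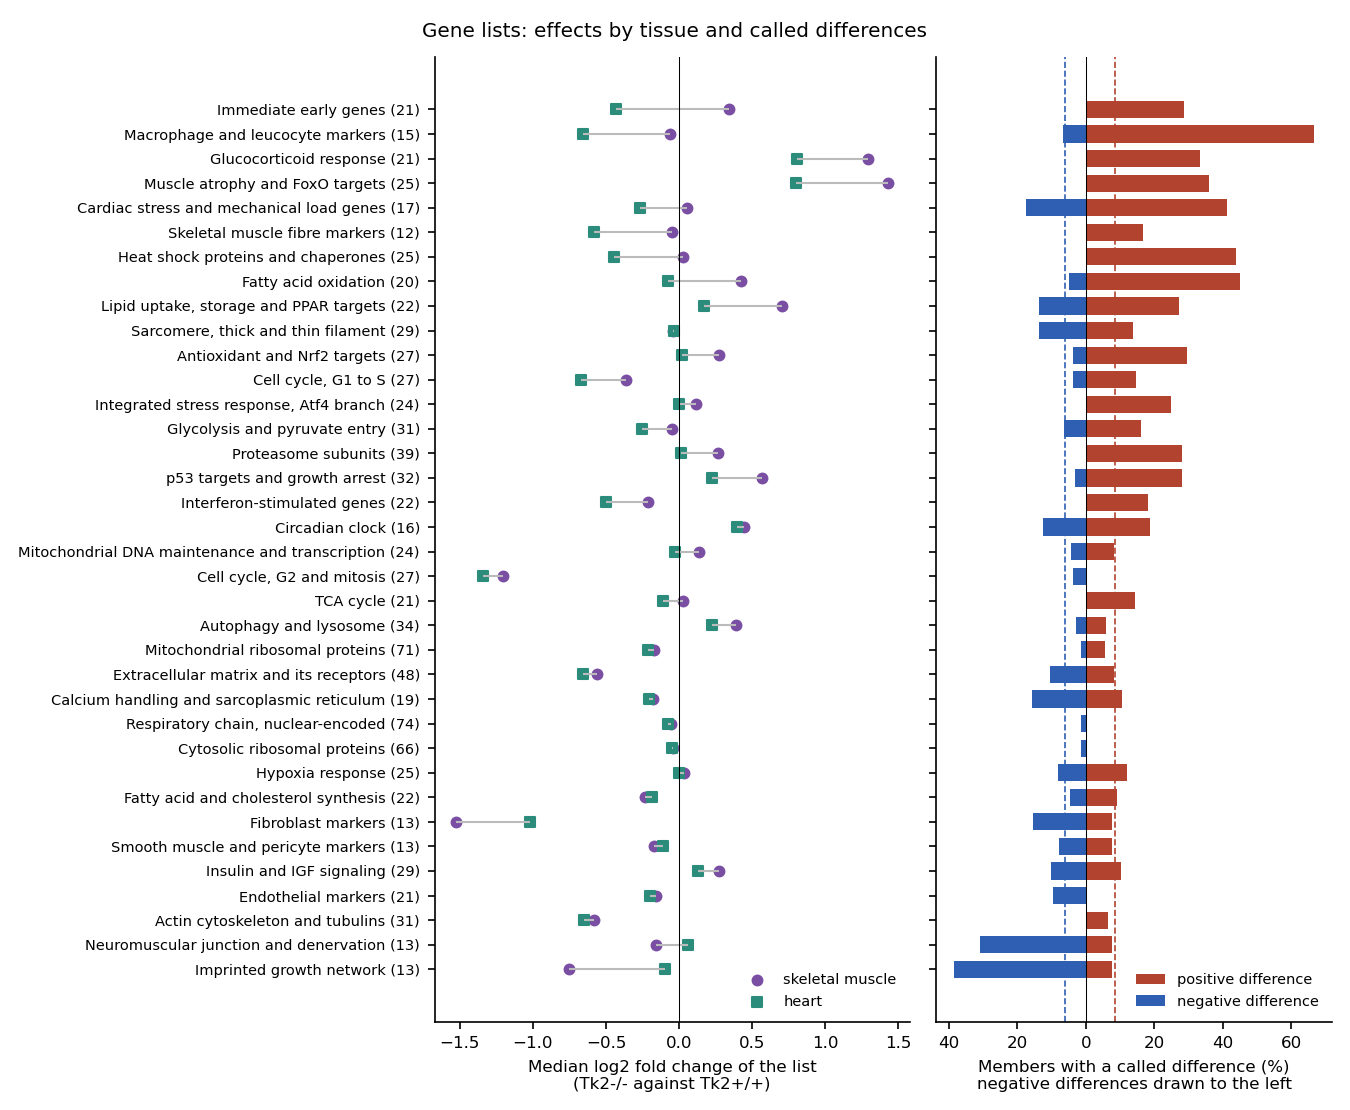
Left, median genotype effect (log2 fold change of Tk2-/- against Tk2+/+) of the members read of each list with 12 or more such members (number in brackets), with circles for skeletal muscle and squares for heart, ordered by the median difference. Right, percent of these members with a called positive (red) or negative (blue, drawn to the left) difference; dashed lines are the shares over all genes read, 8.56% and 6.04%. Immediate early genes stand at the top and imprinted genes at the bottom.

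Of 32 p53 targets and growth arrest genes, 20 were higher in Tk2-/- skeletal muscle and 14 in Tk2-/- heart (median effect in heart 0.22, and -0.42 without normalisation), and the difference was positive for 9, *Phlda3* and *Gadd45g* foremost, and negative for 1. The latter, the imprinted cyclin-dependent kinase inhibitor *Cdkn1c* (p57), was 1076, 933 and 971 against 348, 352 and 364 in muscle and 72.0, 77.1 and 88.3 against 96.8, 95.9 and 90.3 in heart (-1.66 ± 0.11, adjusted p = 8.26e-06). Its effect in heart did not pass (adjusted p = 0.0539). Genes of G2 and mitosis fell in both tissues, 26 of 27 in muscle and 24 of 27 in heart, and 1 of them differed, the centromeric histone *Cenpa* (-1.15), which was 89.2 to 124 against 28.4 to 44.3 in muscle and 218 to 328 against 251 to 260 in heart, a difference of -0.51 without normalisation (adjusted p = 0.0936). Of 27 genes of G1 and S phase, 13 were lower in muscle and 23 in heart, with a positive difference for 4 (14.8%) and a negative one for 1 (3.7%). Among them *Rrm2*, the cell-cycle subunit of ribonucleotide reductase, was 101 to 148 against 137 to 242 in muscle and 237, 102 and 87.4 against 51.2, 35.0 and 38.5 in heart (1.82 ± 0.40, adjusted p = 0.0138, and 0.0716 without moderation). The DNA polymerase gene *Pole* rose by 1.04 in muscle and fell by 0.55 in heart (1.59 ± 0.25), and *E2f8* was called lower in heart alone (1.17 ± 0.23). None of the 3 genes was lower in Tk2-/- muscle.

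Contractile genes differed in both directions, with 4 of 29 sarcomere genes on each side (13.8% each, against 8.56% and 6.04% of all genes read). Skeletal α-actin, *Acta1*, was 1116, 1019 and 1182 in Tk2+/+ and 138, 140 and 120 in Tk2-/- heart, a 7.55-fold fall, and 7428 to 8104 in Tk2+/+ and 7345 to 7564 in Tk2-/- skeletal muscle (difference 2.86 ± 0.11, adjusted p = 4.45e-08). In muscle it ranked 15 to 36 among the 35556 probe sets of an array, near the top of the scale. *Casq1*, the skeletal calsequestrin that stores calcium in the sarcoplasmic reticulum, was 505, 526 and 326 against 73.3, 80.6 and 42.9 in heart and 5946 to 6128 against 4372 to 5039 in muscle (2.18 ± 0.26, adjusted p = 0.000384), and the slow skeletal troponin *Tnnt1* fell in heart from 106 to 132 down to 43.8 to 59.6 (1.55 ± 0.31). The 12 skeletal muscle fibre genes that were read all had a difference above 0, 2 of them called, and 10 were lower in Tk2-/- heart. Their sum over 20 genes was 14339 to 14654 in Tk2+/+ and 10953 to 12259 in Tk2-/- heart. *Ckm*, *Eno3* and *Pygm* held much of it, with means of 5109, 4502 and 2656 in Tk2+/+ heart. *Myh4*, *Tnni2*, *Tnnt3*, *Pvalb*, *Atp2a1* and *Mybpc2* averaged 43.6 to 66.0 there, near the reading limit. The sum in heart is therefore no measure of skeletal muscle fibres. In bulk tissue, fewer cells of a type and less RNA per cell cannot be told apart.

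Of the cardiac isoforms, *Actc1*, cardiac α-actin, was 7293 to 8125 in Tk2+/+ and 2283 to 2486 in Tk2-/- skeletal muscle and 8526 to 9009 against 7003 to 8526 in heart (-1.53 ± 0.12, adjusted p = 2.04e-05). It ranked 5 to 30 among the probe sets of the heart arrays and 14 to 37 in Tk2+/+ muscle, near the top of the scale. The call for the skeletal actin thus lay in heart and that for the cardiac actin in skeletal muscle. *Myh7*, the slow and fetal cardiac myosin heavy chain, was 56.3, 31.0 and 48.9 against 902, 302 and 1867 in heart and 574 to 1630 against 1719 to 2553 in muscle. The Tk2-/- heart arrays were widely spread, and the difference of -2.96 ± 0.74 passed narrowly (adjusted p = 0.0236) and not without any 1 of 5 arrays (adjusted p up to 0.059). *Atp2a2*, the calcium pump of heart and slow fibres, rose in muscle from 1042 to 1560 up to 1956 to 2284 and did not pass in heart (0.83 ± 0.17, adjusted p = 0.00846). The junctional protein gene *Jph1* rose in heart from 133 to 170 up to 232 to 265 (-0.90 ± 0.13, adjusted p = 0.00145), a difference of -0.14 without normalisation that did not pass (adjusted p = 0.565). Other muscle genes were called lower in muscle alone: *Mrtfa*, a cofactor of serum response factor (379 to 534 against 108 to 117), *Mamstr*, a cofactor of MEF2 (565 to 664 against 89.2 to 192), and *Popdc2*, a cyclic AMP binding membrane protein (531 to 626 against 137 to 273). None of the 3 passed in heart, and their differences were -1.75, -1.67 and -1.71. *Cited4*, a transcriptional coactivator of the exercised heart, fell in both tissues and further in muscle (-2.12 ± 0.24), from 283 to 472 down to 36.9 to 50.6. *Frzb*, a secreted Wnt inhibitor, was 692, 339 and 370 against 87.7, 58.1 and 62.5 in muscle and 96.2, 54.5 and 79.6 against 131, 97.3 and 113 in heart, where its effect of 0.50 did not pass (adjusted p = 0.133); the difference was -2.94 ± 0.34 (adjusted p = 0.000287).

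Immediate early genes, which are switched on within minutes by stretch, stimulation or tissue handling, had the highest median difference of the lists with 12 or more genes read (0.80, 21 genes). It was positive for 6 and negative for none, and 9 were lower and 4 higher in Tk2-/- heart, against 1 lower and 5 higher in Tk2-/- skeletal muscle. *Fos* was 112, 120 and 151 against 10.5, 51.6 and 9.3 in heart and 103 to 109 against 99.7 to 159 in muscle (2.18 ± 0.41, adjusted p = 0.00584). *Ier3* moved in muscle instead, from 52.1 to 82.8 up to 138 to 172 (1.23 ± 0.20, adjusted p = 0.00255). For *Fos*, *Atf3* and *Rtn4r*, the Nogo receptor gene, which was 237 to 274 against 35.2, 132 and 50.9 in heart, Tk2-/- heart replicate 2 lay above both other knockout arrays. Without it the differences were 2.68, 3.19 and 2.34, against 2.18, 2.79 and 1.87 with it.

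Imprinted genes of the fetal growth network had the lowest median difference of these lists (-0.48, 13 genes read). The difference was negative for 5 and positive for 1, and 8 were lower in Tk2-/- skeletal muscle and 5 in Tk2-/- heart. *Plagl1*, a zinc finger factor of this network, was 386 to 621 against 179 to 213 in muscle and 140 to 209 against 167 to 224 in heart (-1.30 ± 0.25, adjusted p = 0.00686), and -0.59 without normalisation (adjusted p = 0.103), and *Peg10* and *Cdkn1c* belong here as well. Of 22 genes measured of the neuromuscular junction and denervation, 13 were read. *Chrna1*, *Chrnd*, *Chrne*, *Chrng*, *Musk*, *Ache*, *Myog*, *Runx1* and *Dach2* were not, so that the count leaves out much of what defines the list. Among the 13 genes, 4 had a negative difference and 1, the acetylcholinesterase anchor *Colq*, a positive one (0.75). The largest was *Etv5*, an ETS factor of subsynaptic nuclei, which rose in heart from 89.6 to 122 up to 278 to 294 and overlapped in muscle at 190 to 226 against 175 to 203 (-1.49 ± 0.15, adjusted p = 0.000108). Genes of the extracellular matrix fell in both tissues, 31 of 48 in muscle and 35 in heart, and differed for 4 and 5 on either side, close to the shares over all genes. *Itgb6*, an epithelial integrin subunit, fell by 1.80 and 3.33 (1.53 ± 0.36, adjusted p = 0.019, and 0.0841 without moderation), and *Thbs2* rose in heart from 279 to 379 up to 721 to 976 (-1.06 ± 0.20), a difference of -0.30 without normalisation (adjusted p = 0.257).

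Leucocyte markers were lower mainly in Tk2-/- heart. Of 15 macrophage and leucocyte genes read, 10 had a positive difference (66.7%) and 1 a negative one, and 13 were lower in Tk2-/- heart, against 1 lower and 2 higher in Tk2-/- skeletal muscle. Their summed signal over 21 markers was 2626 to 2999 in Tk2+/+ and 1617 to 1757 in Tk2-/- heart, and 2262 to 3541 and 2254 to 3126 in skeletal muscle. The lysosomal macrophage marker *Cd68* was 115, 120 and 124 against 201, 248 and 287 in muscle and 108, 93.0 and 109 against 60.7, 57.2 and 68.3 in heart (1.54 ± 0.15, adjusted p = 0.00011). *Adgre1* (F4/80) fell in heart from 90.3 to 119 down to 29.0 to 44.3 and overlapped in muscle (1.04 ± 0.20, adjusted p = 0.00608), and lysozyme (*Lyz2*) was 397 to 446 against 280 to 286 in heart (0.97 ± 0.21, adjusted p = 0.0122). Of 22 interferon-stimulated genes, 17 were lower in Tk2-/- heart, against 27.5% of all genes read. In Tk2-/- skeletal muscle 9 were lower and 1 higher, against 23.6% and 21.8% of all genes read. The difference was positive for 4 (18.2%) and negative for none, *Rsad2* and *Isg20* (1.55) foremost, the latter not without either of 2 arrays (adjusted p up to 0.0535). *Slc4a1*, the anion exchanger of red cells, was 114, 209 and 257 against 32.6, 27.5 and 32.9 in heart and 35.3 to 100 against 34.8 to 246 in muscle (2.48 ± 0.67, adjusted p = 0.0347, and not without any 1 of 8 arrays). It was the only 1 of 3 erythroid markers read with a called difference, and the sum of 5 erythroid markers was lower in Tk2-/- heart (2225 to 2976 against 670 to 1558) and overlapped in muscle (1454 to 2528 against 634 to 1500). *Tfrc* held much of this fall, with means of 1479 and 446 in heart, and of 1693 and 596 in muscle with no call. *Alas2* averaged 1008 and 690 in heart and 287 and 345 in muscle, with no call in either. The sum is therefore no measure of red cells alone. The part of blood and leucocyte content in the differences of other genes was not tested. Endothelial, smooth muscle and fibroblast markers differed for 2 of 21, 2 of 13 and 3 of 13 genes, against 14.6% of all genes read. Among them was *Prnd*, the prion-like gene of endothelium, which fell by 4.33 and 3.33 (-0.99 ± 0.22, adjusted p = 0.0136), a difference that did not pass without normalisation (-0.59, adjusted p = 0.0635) or with an offset of 1 (-0.42, adjusted p = 0.58). Satellite cell and myoblast markers fell in sum over 20 genes from 6180 to 7038 down to 3971 to 5109 in muscle and from 2966 to 3470 down to 1760 to 2065 in heart. *Cd34* held much of these falls, with means of 1720 and 717 in Tk2+/+ and Tk2-/- muscle and 1666 and 646 in heart. In heart, *Pax7*, *Myod1* and *Myog* averaged 4.12 to 12.6, so that the sum there is no measure of myoblasts. Of the 7 markers of this list that were read, 1 had a positive difference. The myogenic factors *Myod1* (345 and 152) and *Myog* (244 and 66.9) and the fusion protein *Mymk* (758 and 142), given as means in Tk2+/+ and Tk2-/- muscle, were lower there and were below the reading limit in heart. Other markers of the list were not called lower in muscle, with means of 1147 and 1457 for *Myf6*, 181 and 180 for *Cdh15* and 300 and 458 for *Sdc4*. Of these, *Sdc4* was called higher. The single markers are named after their values were seen. The part of satellite cells and myoblasts in the differences of genes that fell in muscle, such as *Actc1*, *Cdkn1c* and *Mamstr*, was not tested.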

How the data were processed

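Total RNA of 12 tissue samples was labelled and hybridised to Affymetrix Mouse Gene 1.1 ST arrays. The authors deposited 1 table of linear intensity values per probe set and array. Affymetrix Expression Console and PLIER appear in the submitters' processing notes with no version, and the study's methods state that data were normalised without naming the procedure. The study's methods describe skeletal muscle and heart of 3 mice of each genotype, and which arrays of the tissues share a mouse is not stated. *Xist* exceeded 100 on 1 skeletal muscle and 2 heart arrays of Tk2+/+ mice, and on 2 and 3 of those of Tk2-/- mice. Read as sex, in neither genotype can the arrays of both tissues all come from the same 3 mice, whatever the numbering. Of 35556 probe sets, 21218 had 1 gene symbol, 1881 several and 12457 none, and 21185 of those with 1 symbol were found in the RefSeq gene table of GRCm38.p6. The brightest probe set of each of 18820 genes was kept.

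Values were taken to log2(signal + 16), since 2258 deposited values were 0, and quantile normalised within each tissue. Fold changes are therefore on the scale of log2 with an offset of 16, which understates the change of dim genes, and normalised signal is this value taken back to the linear scale. Group means and the difference of genotype effects were fitted over all 12 arrays by lmFit and eBayes of limma 3.58.1 (R 4.3.3), which leaves 8 residual degrees of freedom. The p-values received a Benjamini-Hochberg adjustment over all 18820 genes with a threshold of 0.05. All tests were two-sided, and errors are SE of the log2 difference. The number of arrays, 3 per group, limits the precision. The arrays were fitted as separate samples, and the replicate number entered only the alternatives. The fit was also run on simulated data, in which the residuals of each gene were shuffled among the arrays and known differences added. Shuffling evens out spread that belongs to a single array, so the simulation does not cover it. Figures and promoter searches used Python 3.11.15, pandas 2.3.3, NumPy 2.4.6 and matplotlib 3.10.9.

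The genes and lists were chosen with earlier results of these data known. Named genes are *Tk2*, the 15 largest positive and 15 largest negative differences past the threshold, up to 8 genes of each opposite class by the smaller of the absolute effects, up to 3 members of each list by the size of a called difference, and each list's brightest member; not all of them are described. *Trim63*, *Cpt1a* and the markers *Adipoq*, *Cidec*, *Lep*, *Ucp1*, *Alas2*, *Pax7*, *Myod1*, *Myog*, *Mymk*, *Myf6*, *Cdh15* and *Sdc4* fall outside this rule. Alternatives covered the normalisation, the offset, the reading limit, probe set choice, moderation, array weights, sex, the replicate number, each array left out and the methods' t-test.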

Additional observations from a re-analysis of the deposited data

Results flagged for a closer look

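The genotype effects in skeletal muscle and heart differed by the test of the difference itself for 805 genes in the positive and 568 in the negative direction. The genes described above that passed this test are given here with the effect in muscle minus the effect in heart, on the log2 scale.

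The positive differences of 2 or more were those of *Egln3* (3.89), *Acta1* (2.86), *Atf3* (2.79), *Fbxo32* (2.61), *Slc4a1* (2.48), *Fhl3* (2.43), *Depp1* (2.43), *Fos* (2.18), *Casq1* (2.18), *Mt1* (2.15), *Otud1* (2.03) and *Phlda3* (2.01). Below them came *Klhl38* (1.97), *Thbs1* (1.88), *Rtn4r* (1.87), *Bche* (1.84), *Rrm2* (1.82), *Gadd45g* (1.80), *Irs2* (1.79), *Chac1* (1.74), *Cebpd* (1.73), *Rsad2* (1.71), *Asns* (1.60), *Gm826* (1.60), *Pole* (1.59), *Trim63* (1.56), *Nfil3* (1.55), *Tnnt1* (1.55), *Isg20* (1.55), *Cd68* (1.54), *Itgb6* (1.53), *Dusp18* (1.51), *Hmox1* (1.42), *Angptl4* (1.37) and *Ier3* (1.23). The smallest were those of *Hk2* (1.19), *E2f8* (1.17), *Foxo1* (1.15), *Gys1* (1.13), *Cpt2* (1.13), *Srxn1* (1.07), *Map1lc3a* (1.07), *Pcx* (1.06), *Adgre1* (1.04), *Ppara* (1.02), *Lyz2* (0.97), *Echs1* (0.96), *Hspa2* (0.92), *Atp2a2* (0.83), *Colq* (0.75), *Psmb3* (0.57), *Psmd8* (0.55), *Psmb5* (0.52), *Lonp1* (0.51) and *Polrmt* (0.41).

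Negative differences of the largest size were those of *Myh7* (-2.96), *Frzb* (-2.94), *Pdzd7* (-2.92), *Tmtc1* (-2.42), *Ripor2* (-2.18), *Cited4* (-2.12), *Serpinb6b* (-2.10), *Sgo2a* (-2.08), *Peg10* (-1.85), *Angpt1* (-1.79), *Slc37a4* (-1.75), *Mrtfa* (-1.75), *Popdc2* (-1.71), *Mamstr* (-1.67) and *Cdkn1c* (-1.66). The smaller ones were those of *Igfbp5* (-1.54), *Actc1* (-1.53), *Etv5* (-1.49), *Fchsd2* (-1.33), *Plagl1* (-1.30), *Cenpa* (-1.15), *Pfkfb2* (-1.12), *Thbs2* (-1.06), *Ppargc1a* (-1.03), *Prnd* (-0.99), *Jph1* (-0.90), *Bhlhe41* (-0.84), *Cpt1a* (-0.59), *Dguok* (-0.46), *Rpl14* (-0.40) and *Atp5g2* (-0.31). No explanation of these differences was tested.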

How the results depend on the processing

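Scaling moved the counts of differences and of opposite genes further than the other choices. Without normalisation 6993 genes had a positive and 58 a negative difference, 1070 and 5 fell into the opposite classes, and 125 were higher and 7864 lower in heart. With median centring these counts were 5670, 95, 736, 7, 267 and 6442, and 1328 genes were lower in muscle. Of the 1373 called differences 862 were called with the same sign without normalisation and 11 with the opposite sign. The differences of *Atp5g2*, *Rpl14*, *Dguok* and *Cpt1a* turned positive, at 0.39, 0.24, 0.32 and 0.18 without normalisation and 0.25, 0.10, 0.19 and 0.044 with median centring, and that of *Tk2* passed at 0.57 without normalisation; the dimmer knockout heart arrays move with these values, and the cause was not tested. Upper-quartile scaling, cyclic loess and quantile normalisation over all arrays or over the 18820 genes kept only, the last chosen after seeing the data, kept each of the counts of genes given here within 1.5 times.

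Other choices moved the counts as follows. An offset of 1 gave 502 and 355 differences with 42 genes in the class higher in muscle and lower in heart, and a reading limit of 100 left 51 in that class. No reading limit gave 854 negative differences and 2595 genes higher in heart. Without moderation 489 and 362 differences passed, and with array weights 1335 and 878, with 142 and 84 in opposite classes. A difference of at least 1 left 133 and 98. At their fold and unadjusted p, the methods' t-test moved the counts within a tissue further than scaling did, and gave 194 genes higher and 263 lower in muscle and 118 and 265 in heart, and it gave 1222, 1352, 587 and 887 after Benjamini-Hochberg. With 1 array left out the ranges were 482 to 1070 positive and 352 to 641 negative differences, 42 to 111 and 35 to 65 opposite genes, 1576 to 2128 higher and 1760 to 2345 lower in muscle, and 1242 to 1793 higher and 1942 to 2748 lower in heart. Of the 1373 called differences, 821 (59.8%) were kept without Tk2-/- heart replicate 1, the fewest. The most, 1244 (90.6%), were kept without Tk2-/- heart replicate 2. The named genes were mostly picked for the size of a called difference in the same data, so they do not stand for all calls. Of 86 named genes with a called difference 75 kept the call whichever array was left out, 18 of the named genes lost it without moderation and 9 with an offset of 1. The former included *Rtn4r*, *Angpt1*, *Dusp18*, *Irs2*, *Rrm2*, *Tnnt1*, *Itgb6* and *Lyz2*, with adjusted p of 0.0515 to 0.0841.

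Whether a replicate number marks a mouse is not stated, and by *Xist* it does not for every number. Deviations of same-numbered arrays correlated at -0.22 to 0.30 over 18 pairs of arrays, with 6 above 0.1. Between the tissues they correlated at 0.19, 0.20 and 0.30 in Tk2+/+ mice, each above all differently numbered pairs, and at -0.17, -0.22 and -0.16 in Tk2-/- mice, so that the numbers were not taken to pair the samples. With the replicate block 722 positive and 487 negative differences passed, and 1153 of the 1373 calls were kept. With the number as a shared animal within a genotype (a random replicate block) 740 and 519 passed, and 1259 were kept. This fit also joins the same-numbered arrays whose *Xist* signals differ. With sex as a term the counts were 718 and 519. Genes with a wild-type mean below 50 in either tissue were not read.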
